A study of Arabidopsis thaliana with 48 samples.

Results

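The comparison is between seedlings of the Arabidopsis mutant card1 and wild-type (WT) seedlings that had both stood for 6 h in DMSO, the solvent control of the study. Its members are the 6 libraries whose labels give that time and agent, 3 of card1 and 3 of WT, of 48 libraries in all. The card1 group is the mutant allele card1-2, and the WT group is a Col-0 line that expresses aequorin, a calcium reporter. The labels name the reporter beside WT and do not say plainly whether card1-2 carries it too, so its presence and the genotype cannot be told apart here. All seedlings were 7 days old and grew in liquid medium with sucrose under long days. Set beside this difference for context are both genotypes in DMSO at 0, 0.5 and 1 h, each with 3 libraries a group. Both genotypes in 5 µM DMBQ (2,6-dimethoxy-1,4-benzoquinone) at 6 h, also with 3 libraries a group, are used in the same way. The DMBQ libraries at 0, 0.5 and 1 h enter only the shared fit of all 48 libraries, which estimates the spread. The mutant is represented by 1 allele, and no label tells if replicates came from different cultures. The p-values therefore describe only the spread among libraries within groups, estimated over all 48, part of which may be technical.

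CARD1, also called HPCA1, encodes a receptor kinase of the plasma membrane with leucine-rich repeats, of subfamily LRR VIII-1. It is known for the calcium signal that follows quinones such as DMBQ and extracellular hydrogen peroxide. Receptor kinases of this kind pass a signal at the cell surface to targets inside the cell. DMSO alone provides no quinone, so the comparison asks which transcripts differ between the genotypes without the added signal.

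Libraries held 4764682 to 11407136 gene counts each. Spearman correlations between replicates across genes were 0.988 to 0.993. The first principal component of log2 CPM (counts scaled to the effective library size) in the 6 libraries held 33.4% of the variance and had all 3 card1 libraries on one side and all 3 WT libraries on the other. The libraries are of bulk seedling RNA, so a lower level cannot be told apart from fewer cells of the type that expresses the gene.

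Of 19839 genes tested, 615 were higher and 414 were lower in card1 (5.19% in all, edgeR's quasi-likelihood test, Benjamini-Hochberg adjusted p under 0.05 across all genes; 3.1% higher and 2.09% lower). Most differences were small. The median log2 fold change was 0.36 among the genes that rose and -0.52 among those that fell, and 97 genes had an absolute log2 fold change of at least 1, 27 of them higher and 70 lower. Of the 1029 called genes, 987 (95.9%) had all 3 card1 libraries on one side of all 3 WT libraries, against 25.5% of all genes tested. The genes were called on these same 6 libraries, so the higher share follows in part from the selection and is only a description. Leaving out 1 of the 6 libraries left 396 to 1179 called genes, and the count fell most without WT replicate 2.

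CARD1 itself (AT5G49760) was measured first as the check of the genotype. It had 27.5, 31.3 and 34.7 CPM in the card1 libraries and 86.6, 79.7 and 99.8 CPM in the WT libraries. All card1 libraries lay below all WT libraries, and the transcript was reduced, not absent. The log2 fold change was -1.51 with a standard error of 0.09 (edgeR's quasi-likelihood test, adjusted p = 7.3e-16). None of the other 6 tested members of LRR VIII-1 was called. The neighbouring gene AT5G49770, a kinase of the same subfamily, had 6.02, 5.43 and 5.39 CPM in card1 against 5.17, 8.09 and 11.3 CPM in WT, and the 2 groups overlapped (log2 fold change -0.57, adjusted p = 0.175). AT5G49780, next on the same chromosome, had a log2 fold change of -0.43 (adjusted p = 0.484). Of 69 tested genes among the 50 on each side of CARD1, 2 were called, ACLB-2, a subunit of ATP citrate lyase, and NFU2, which helps build iron-sulfur clusters in plastids. The ACLB-2 call was lost in all 6 fits that left out 1 library (adjusted p up to 0.208, without WT replicate 3), and the NFU2 call in none. That share of 2.9% was below the 5.19% of all genes. On chromosomes 1 to 5, between 5.01% and 5.45% of the tested genes were called.

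**Figure D1:**
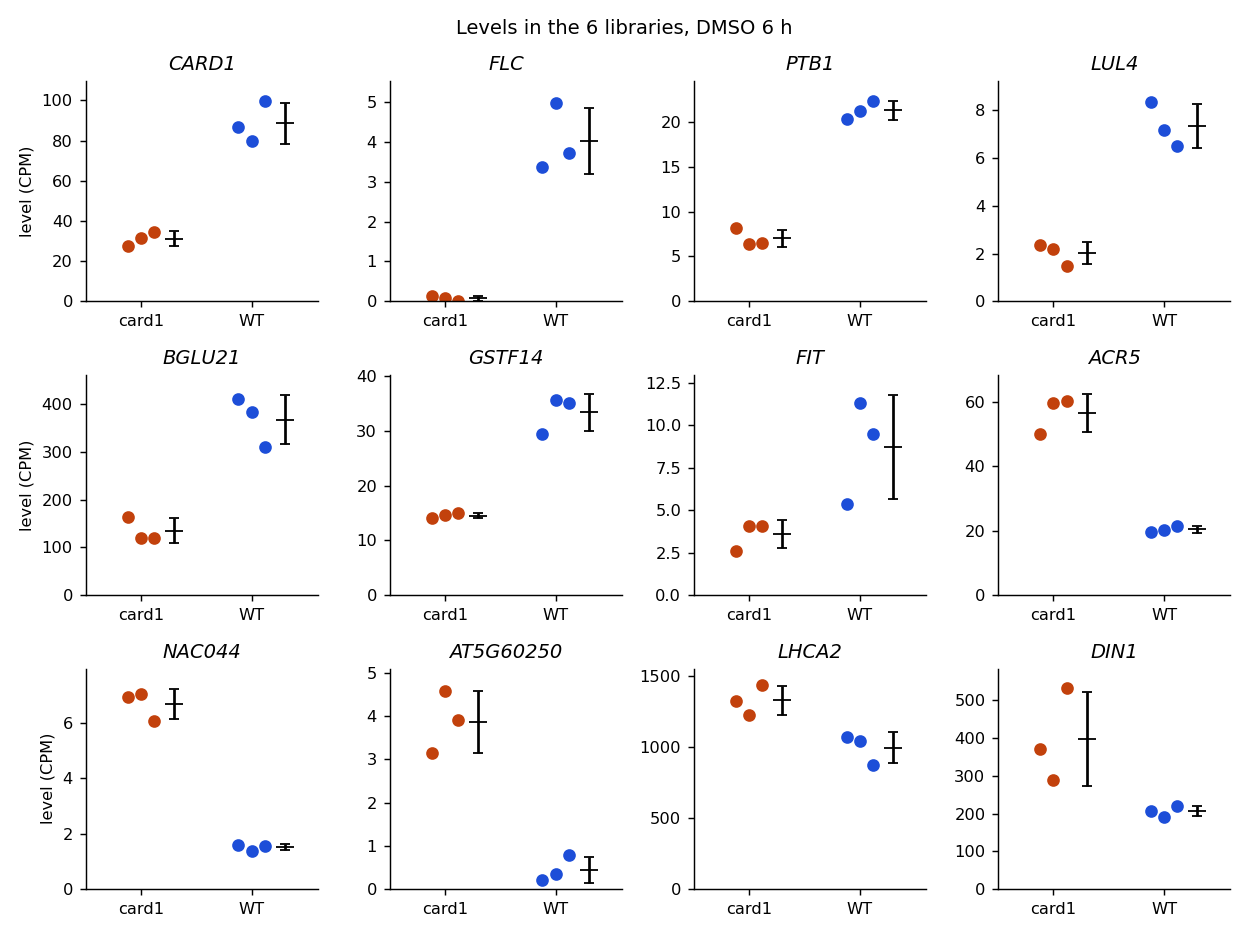
Levels of 12 genes in CPM in the 3 card1 libraries (orange, left) and the 3 WT libraries (blue, right) at 6 h in DMSO; points are libraries and the black mark beside each group is its mean with SD. CARD1, FLC, PTB1, LUL4, BGLU21, GSTF14 and FIT lie lower in card1 in every library, and ACR5, NAC044, AT5G60250, LHCA2 and DIN1 lie higher.

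The lowest fold change of the genes named was that of FLC (FLOWERING LOCUS C, AT5G10140), a MADS-box repressor of flowering. FLC was nearly undetected in card1, with 0.131, 0.0848 and 0 CPM, against 3.38, 4.97 and 3.73 CPM in WT. In counts this was 2 reads summed over the 3 card1 libraries and 84 over the 3 WT libraries, a ratio of 0.0178 after scaling (95% exact interval 0.00213 to 0.0665, which covers counting error only). Among other genes of the flowering list, SVP, a repressor that acts beside FLC, rose to 26.9, 29 and 33 CPM in card1, against 21.9, 19.6 and 22 CPM in WT (log2 fold change 0.49, adjusted p = 0.00537), a call that was lost without WT replicate 2 (adjusted p = 0.0582). FLM, MAF2, MAF3, MAF4, SOC1 and FRI were not called. FLC was also lower in card1 at 0, 0.5 and 1 h in DMSO and at 6 h in DMBQ, with log2 fold changes of -3.59, -3.24, -3.44 and -4.15.

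Several of the 15 largest falls were tight between libraries. PTB1, a polypyrimidine tract-binding protein that acts in splicing, had 8.12, 6.45 and 6.46 CPM in card1 and 20.3, 21.3 and 22.4 CPM in WT (log2 fold change -1.61, standard error 0.15, adjusted p = 4.47e-10). LUL4, a RING-type ubiquitin ligase, had 2.36, 2.21 and 1.48 CPM in card1 and 8.36, 7.16 and 6.52 CPM in WT (log2 fold change -1.83, adjusted p = 2.18e-06). In both genes every card1 library lay below every WT library. AIR1, a lipid-transfer-like protein induced by auxin in root cultures, had 40.3, 58.4 and 46 CPM in card1 and 174, 136 and 202 CPM in WT (log2 fold change -1.81, adjusted p = 0.00935), with its neighbour AT4G12545 at 16.6, 20.8 and 16.8 CPM in card1 and 71.2, 43.1 and 49.4 CPM in WT. These 2 genes are close relatives, and reads that match both would not have been counted for either. AIR1 lost its call without card1 replicate 1 (adjusted p = 0.055) and AT4G12545 without WT replicate 1 (adjusted p = 0.0501).

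AT3G28270, a protein with a DUF677 domain, was called at 6 h in DMSO and at none of the earlier times. Its levels at 6 h were 2.88, 2.97 and 0.808 CPM in card1 and 15.3, 11.6 and 14.3 CPM in WT (log2 fold change -2.55, adjusted p = 0.000183), while at 0, 0.5 and 1 h the log2 fold changes were -0.64, 0.12 and -0.05. The difference between 6 h and the earlier times was called (contrast -2.36, adjusted p = 0.0292), and was lost in 5 of 6 fits that left out 1 library (adjusted p up to 0.0773, without WT replicate 3), with DMSO libraries only (0.0838) and with WT replicate 1 left out at all DMSO times (0.0592). MRN1, which makes the triterpene marneral, had 2.75, 3.22 and 2.02 CPM in card1 and 17.7, 6.59 and 12 CPM in WT (log2 fold change -2.07, adjusted p = 0.0442). CYP708A2, the thalianol hydroxylase of another triterpene gene cluster, had 3.27, 2.88 and 3.23 CPM in card1 and 13.1, 6.12 and 7.61 CPM in WT (log2 fold change -1.47, adjusted p = 0.0218). Leaving out 1 library lost the MRN1 call in 5 of 6 fits and the CYP708A2 call in 3 of 6, with adjusted p up to 0.166 and 0.132, both without WT replicate 1. All 5 thalianol cluster genes and all 3 marneral cluster genes had negative log2 fold changes, with 2 called in the thalianol cluster (CYP708A2 and THAA2) and 1 in the marneral cluster (MRN1). The THAA2 call was lost in 5 of 6 fits that left out 1 library (adjusted p up to 0.222, without WT replicate 3) and with DMSO libraries only. The 2 clusters were listed after these values had been seen. Their median log2 fold changes at 6 h in DMSO were -0.92 (thalianol) and -0.78 (marneral). The medians were -0.16 and -0.39 at 6 h in DMBQ, and 0.26 and -0.09 at 0 h in DMSO. In these 2 comparisons 0 members of either cluster were called.

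The remaining falls were AT3G05950, a cupin-type protein, whose call was lost in 4 of 6 fits that left out 1 library (adjusted p up to 0.0751, without card1 replicate 1), AT3G55710, a glycosyltransferase, AT5G46890, of the lipid-transfer family, AT5G33355, a defensin-like protein, PEP7, a precursor of an elicitor peptide, and the plastid gene ATCG01080. PEP7 had 0.917, 1.27 and 1.35 CPM in card1 and 4.58, 2.89 and 3.11 CPM in WT (log2 fold change -1.52, adjusted p = 0.0139), a call that was lost in 3 of 6 such fits (adjusted p up to 0.0707, without WT replicate 1). ATCG01080 and AT5G46890 lost their calls in all 6 fits that left out 1 library.

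**Figure D2:**
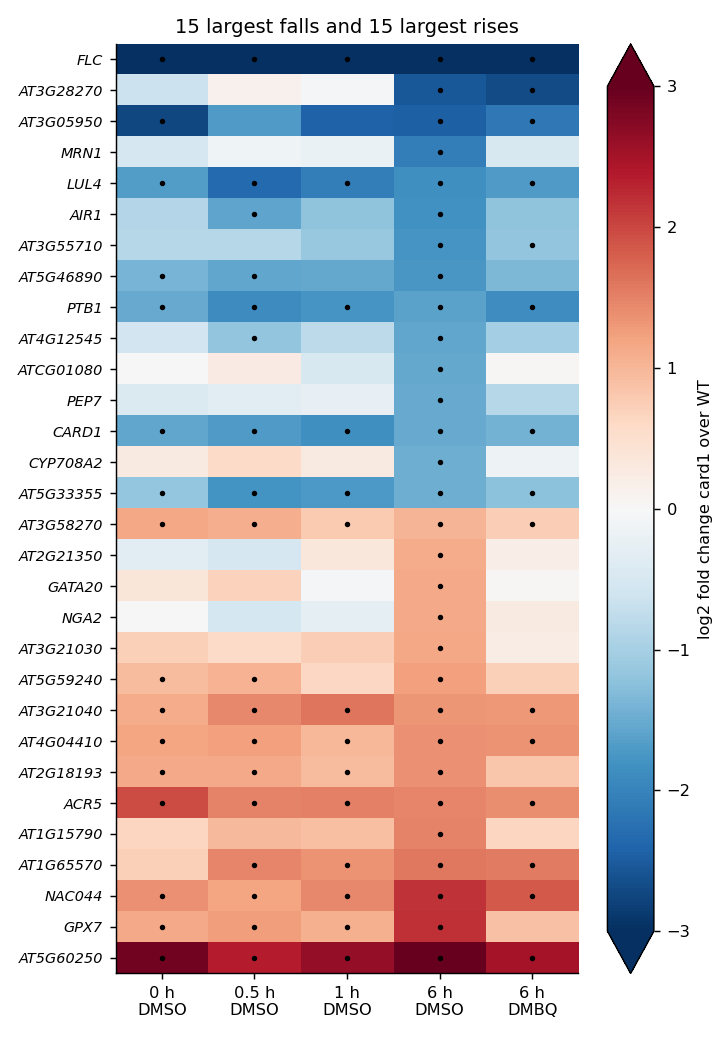
Log2 fold change card1 over WT (colour, blue lower and red higher in card1, saturating at 3 in either direction) of the 15 largest falls and 15 largest rises at 6 h in DMSO, in 5 comparisons that share no library; a dot marks an adjusted p under 0.05. FLC, LUL4, PTB1, CARD1, ACR5 and NAC044 carry a dot in all 5 columns, and AT3G28270, MRN1, ATCG01080, PEP7 and CYP708A2 carry none at 0, 0.5 or 1 h.

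The largest rise was that of AT5G60250, a RING-type zinc finger protein, with 3.14, 4.58 and 3.9 CPM in card1 and 0.199, 0.347 and 0.776 CPM in WT (log2 fold change 3.1, standard error 0.44, adjusted p = 1.49e-05). NAC044, a transcription factor of the DNA damage response, had 6.94, 7.04 and 6.06 CPM in card1 and 1.59, 1.39 and 1.55 CPM in WT (log2 fold change 2.16, adjusted p = 1.42e-05). ACR5, a protein with ACT domains, had 49.9, 59.7 and 60.2 CPM in card1 and 19.5, 20.1 and 21.6 CPM in WT (log2 fold change 1.47, adjusted p = 4.51e-10). In all 3 genes the card1 libraries lay above the WT libraries with a gap wider than the spread inside either group, and the calls held in all 6 fits that left out 1 library. GPX7, a plastid glutathione peroxidase, had 3.14, 1.7 and 1.62 CPM in card1 and 0.597, 0.116 and 0.776 CPM in WT (log2 fold change 2.19, adjusted p = 0.00227), and its call was lost without WT replicate 2 (adjusted p = 0.0602).

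Of the other rises, AT4G04410, with no function in the annotation, averaged 43.8 ± 3.5 CPM in card1 and 16.6 ± 2.3 CPM in WT (log2 fold change 1.38). The 2 neighbouring genes AT3G21030 and AT3G21040, also uncharacterised, had log2 fold changes of 1.17 and 1.33. AT2G18193, an ATPase with a P-loop, had a log2 fold change of 1.38. AT1G65570 (pectin lyase family), AT1G15790 (a Mediator-related protein), AT5G59240 (ribosomal protein S8e family), AT3G58270, AT2G21350 and the transcription factors GATA20 and NGA2 had log2 fold changes of 1.02 to 1.58. NGA2 lost its call in all 6 fits that left out 1 library, AT2G21350 and AT1G65570 in 4, AT1G15790, GATA20 and AT5G59240 in 3, AT3G21030 in 2, and AT3G21040 and AT3G58270 in 1. The highest adjusted p in those fits was 0.237 for AT2G21350 without WT replicate 2. NGA2 was at 1.96, 2.97 and 2.56 CPM in card1 and 0.995, 0.924 and 1.55 CPM in WT.

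The DMBQ libraries at 6 h gave the same comparison in 6 other libraries. There 752 genes were higher and 647 lower in card1 (7.05% of the tested genes; 3.79% and 3.26%). Of the 1029 genes called at 6 h in DMSO, 434 were called in the same direction in DMBQ and 0 in the opposite direction, which is 42.2% of the DMSO calls and 31.0% of the DMBQ calls. Same-sign differences made up 95.7% of the DMSO calls and 68.7% of all genes tested. The difference between the 2 genotype differences was tested directly and no gene was called (0 of 19839, edgeR's quasi-likelihood test), with 1041 genes at an unadjusted p under 0.05 (5.25%) and 0 genes called by DESeq2. CARD1, FLC, PTB1, LUL4, NAC044 and ACR5 had log2 fold changes of -1.41, -4.15, -1.87, -1.71, 1.85 and 1.39 in DMBQ.

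**Figure D3:**
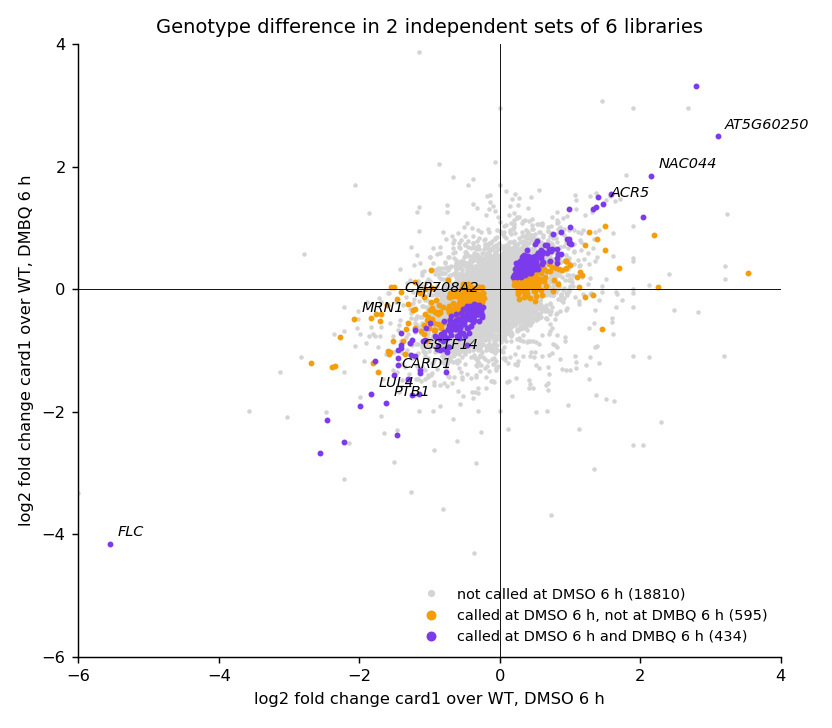
Log2 fold change card1 over WT at 6 h in DMSO (x axis) and in DMBQ (y axis), 1 point per tested gene, from 2 sets of 6 libraries that share no library; purple marks the 434 genes called in both, orange the 595 called in DMSO and not in DMBQ, and 3 points fall outside the axes. FLC lies at the lower left, AT5G60250 at the upper right, and no purple point lies in the upper left or lower right.

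At 0, 0.5 and 1 h in DMSO, 12.7, 6.11 and 3.66% of the tested genes were called. For each library at 0 h, log2 CPM less the mean over all libraries was correlated with transcript length across genes. Spearman values were -0.512, -0.494 and 0.082 in card1 replicates 1, 2 and 3, and 0.084, -0.081 and 0.012 in WT. Card1 replicates 1 and 2 thus stood apart. With only the libraries compared, 13 genes were called at 0 h, and with a correction for transcript length 1046. Across all 5 comparisons, 53 genes were called in the same direction every time, 24 higher and 29 lower. Beside those already named they held AT1G20390, with log2 fold changes of 0.81 at 6 h in DMSO and 0.65 in DMBQ, ATC (a relative of the flowering regulator TFL1) at 0.96 and 0.82, SKIP6, an F-box protein, at -1.13 and -1.36, and the peroxidase gene AT3G01190 at -1.40 and -0.71. AT1G20390 had 151, 151 and 132 CPM in card1 and 78.6, 84.6 and 84 CPM in WT. These 4 genes were picked from the list after their values had been seen. A further 219 genes, 127 higher and 92 lower, were called in the same direction at 6 h in DMSO and DMBQ and not in that direction at an earlier DMSO time, and 368 were called at 6 h in DMSO and not in the same direction in any of the other 4 comparisons.

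Gene lists were described by their counts beside the 5.19% of all genes tested. Photosynthesis genes included 4 that rose and 1 that fell of 26. RBCS1A, a small subunit of Rubisco, had 15824, 14843 and 15053 CPM in card1 and 12011, 10862 and 9820 CPM in WT (log2 fold change 0.48, adjusted p = 0.00242). LHCA2, a light-harvesting protein of photosystem I, had 1321, 1229 and 1437 CPM in card1 and 1073, 1043 and 873 CPM in WT (log2 fold change 0.42, adjusted p = 0.00169). The light-harvesting genes LHCB1.5 and LHCB1.1 were high in 1 card1 library: LHCB1.5 had 1927, 1748 and 3643 CPM in card1 and 1997, 1401 and 1178 CPM in WT, and LHCB1.1 had 523, 629 and 1875 CPM in card1 and 662, 265 and 328 CPM in WT. Both groups overlapped in these 2 genes, which share much of their sequence, and LHCB1.5 lost its call in 3 of 6 fits that left out 1 library, with an adjusted p of 0.339 without card1 replicate 3. RCA, which activates Rubisco, fell to 3205, 3168 and 3169 CPM in card1, against 4379, 4277 and 3974 CPM in WT, and lost its call in all 6 fits that left out 1 library. The median log2 fold change of the list was 0.12, against 0.00067 for all genes tested.

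Markers of shoot and root were measured beside these groups. The summed level of 12 shoot markers was 25566 to 26954 CPM in card1 and 20135 to 24368 CPM in WT, with 1 called higher (RBCS1A) and 1 lower (RCA). This sum rests largely on RBCS1A, whose levels are given above, and so says little about the other shoot markers. Of the 12 markers 10 had positive log2 fold changes, at a median of 0.18. The summed level of 17 root markers was 2233 to 2389 CPM in card1 and 2319 to 2806 CPM in WT, with PHO1, which loads phosphate into the xylem, called lower (-0.34), a call lost in 5 of 6 fits that left out 1 library. Their part in the differences above was not tested. The summed level of 9 seed storage genes was 0.393 to 246 CPM in card1 and 2.59 to 67.3 CPM in WT. CRC, a member of this list, was at 78.9 CPM in card1 replicate 2 and at 0 in the other 2 card1 libraries. Of 90 plastid genes 3 were called lower at a median of -0.40, and of 17 mitochondrial genes 1 was called lower at a median of -0.82. These 4 calls were lost in 5 or 6 of 6 fits that left out 1 library. The libraries were made with an mRNA kit. Mitochondrial genes held 0.064, 0.082 and 0.067% of gene counts in card1 and 0.101, 0.133 and 0.131% in WT. Plastid genes held 1.46, 1.37 and 1.21% in card1 and 1.43, 1.63 and 1.59% in WT. The cause of these differences was not tested.

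Redox and antioxidant enzymes included 3 that rose and 1 that fell of 24, with a median of 0.15. VTC2, which catalyses a controlling step of ascorbate synthesis, had 57.1, 56.6 and 53 CPM in card1 and 80.6, 88.3 and 96.6 CPM in WT (log2 fold change -0.67, adjusted p = 0.000426). CAT1, a catalase, rose to 99.8, 96.9 and 103 CPM in card1, against 77.8, 75.3 and 71.1 CPM in WT, and lost its call in all 6 fits that left out 1 library. The plastid peroxidases 2CPA and SAPX had log2 fold changes of 0.32 and 0.34, and lost their calls in 3 and 4 of 6 fits that left out 1 library (adjusted p up to 0.142 without card1 replicate 1, and 0.307 without card1 replicate 2). Of 34 glutathione S-transferases 2 were called, both lower. GSTF14 had 14, 14.7 and 14.9 CPM in card1 and 29.4, 35.7 and 35.1 CPM in WT (log2 fold change -1.21, adjusted p = 0.00445). GSTU18 had 10.7, 12.1 and 7.67 CPM in card1 and 15.5, 19.6 and 18.3 CPM in WT (log2 fold change -0.80, adjusted p = 0.000667).

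Iron genes included 0 that rose and 2 that fell of 33, at a median of -0.22. FIT, the factor that switches on iron uptake in roots, had 2.62, 4.07 and 4.04 CPM in card1 and 5.37, 11.3 and 9.47 CPM in WT (log2 fold change -1.31, adjusted p = 0.00321). FPN2, a metal transporter of the vacuole, had 4.19, 3.73 and 6.6 CPM in card1 and 8.95, 13.3 and 7.3 CPM in WT (log2 fold change -1.09, adjusted p = 0.00313). WT replicate 2 stood apart in this pathway, with the iron transporter IRT1 at 86.7 CPM and the ferric reductase FRO2 at 56.6 CPM, against 19.7 and 8.23 CPM for IRT1 in the other 2 WT libraries and 7.16 and 3.73 CPM for FRO2. Neither IRT1 nor FRO2 was called (adjusted p = 0.234 and 0.101), and without WT replicate 2 the calls of FIT and FPN2 were lost (adjusted p = 0.0632 and 0.0992).

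**Figure D4:**
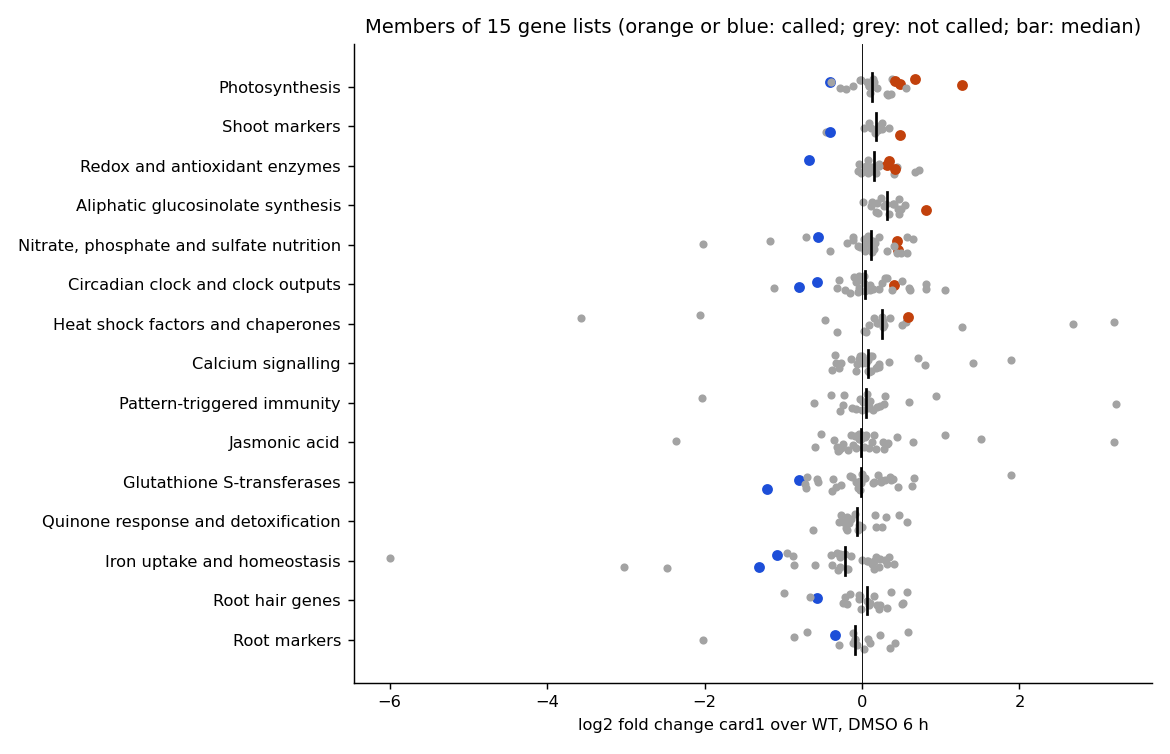
Log2 fold change card1 over WT at 6 h in DMSO of each tested member of 15 gene lists; filled orange and blue points passed the adjusted p of 0.05 (higher and lower in card1), grey points did not, and the black bar is the list's median. Photosynthesis and redox lists hold the most called members, and calcium signalling, pattern-triggered immunity, jasmonic acid and quinone response hold none.

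Of 28 calcium signalling genes, 25 genes of pattern-triggered immunity, 22 WRKY factors, 37 jasmonic acid genes and 20 genes of quinone response and detoxification, 0 were called, with medians of 0.08, 0.05, 0.19, -0.01 and -0.07. The member with the smallest p of the immunity list was FRK1, a receptor kinase induced by flagellin, at 1.05, 1.19 and 2.42 CPM in card1 and 0, 0.347 and 0 CPM in WT (adjusted p = 0.081). Auxin, early stress ERF, CBF and ZAT factors, xyloglucan endotransglucosylases, flavonoid synthesis, hypoxia response and cell division also had 0 called members.

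Single members were called in several other lists. BGLU21, a beta-glucosidase of the ER body family, had 165, 120 and 120 CPM in card1 and 410, 383 and 309 CPM in WT (log2 fold change -1.45, adjusted p = 0.000159). BGLU21 belongs to the PYK10 complex, a list added after the values had been seen, of which 13 of 15 members had negative values and the lipase GLL22 and the lectin JAL31 were also lower. GL2, a factor that keeps root cells hairless, had 9.04, 12.2 and 8.89 CPM in card1 and 13.9, 16.1 and 15.4 CPM in WT, and lost its call in 4 of 6 fits that left out 1 library (adjusted p up to 0.133, without WT replicate 2). ARR4, a cytokinin response regulator, had 42.3, 48.8 and 40.1 CPM in card1 and 64.3, 70.5 and 67.5 CPM in WT (log2 fold change -0.62). DIN1, induced in the dark, had 371, 289 and 534 CPM in card1 and 208, 191 and 219 CPM in WT (log2 fold change 0.95). All 18 tested genes of aliphatic glucosinolate synthesis had positive values, at a median of 0.32, and 1 was called, IPMI2, at 74.4, 88.5 and 57.2 CPM in card1 and 45.4, 39.9 and 41.6 CPM in WT. Leaving out 1 library lost the calls of ARR4 and DIN1 in 4 of 6 fits each and that of IPMI2 in 1, with adjusted p up to 0.0888, 0.113 and 0.058 (without WT replicate 2, card1 replicate 3 and card1 replicate 2).

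The other single calls were of smaller size. PRX71, an apoplastic peroxidase, had 209, 194 and 225 CPM in card1 and 145, 135 and 136 CPM in WT (log2 fold change 0.59, adjusted p = 0.018). SOT16, a sulfotransferase of glucosinolate synthesis, had 72.6, 77.8 and 73.4 CPM in card1 and 53.7, 56.7 and 54.8 CPM in WT (0.44, adjusted p = 0.0211). In both genes every card1 library lay above every WT library. The chaperone HSP90.1 (0.59), the nitrate transporter NRT1.1 (0.45) and G6PD3, a glucose-6-phosphate dehydrogenase (0.46), were also called higher. ABF3 (-0.52), a factor of the abscisic acid response, ACD6 (-0.84), a regulator of salicylic acid defence, PAL4 (-0.74), which starts phenylpropanoid synthesis, and PPCK1 (-0.56), a kinase of PEP carboxylase, were called lower. PPCK1 lost its call in all 6 fits that left out 1 library, SOT16 in 5, PRX71, HSP90.1, NRT1.1, G6PD3 and ACD6 in 4, ABF3 in 3 and PAL4 in 1.

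The 6 h difference was then set against the earlier DMSO times. Between 0 and 6 h in DMSO, 8251 genes (41.6%) changed in card1 and 6192 (31.2%) in WT. The genotype difference at 6 h minus the mean of the differences at 0, 0.5 and 1 h was tested as 1 contrast with edgeR's quasi-likelihood test, and 127 genes were higher and 110 lower (1.19% in all; 0.640% and 0.554%). The genotype difference followed transcript length to different degrees, with Spearman correlations across genes of -0.421, 0.275, 0.012 and -0.028 for DMSO at 0, 0.5, 1 and 6 h, and 0.177 for DMBQ at 6 h; that of the contrast itself was 0.030. Against 0.5 and 1 h only, a contrast chosen after seeing the data, 268 genes were called, 179 of them among the 237.

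Several of these genes belong to the circadian clock, the daily oscillator in which morning factors and evening factors repress each other in turn. Of 33 clock genes, LUX was called higher and RVE2 and RVE4 lower in card1 at 6 h itself (log2 fold changes 0.41, -0.80 and -0.57), and in the contrast 4 were higher and 3 lower. The LUX call at 6 h was lost in 3 of 6 fits that left out 1 library (adjusted p up to 0.102, without card1 replicate 3). PRR3, a pseudo-response regulator, averaged 50.5 ± 5.9 CPM in card1 against 39 ± 5.4 CPM in WT at 6 h, while at 1 h it averaged 13.1 ± 2.7 CPM in card1 and 24.4 ± 3.4 CPM in WT (SD, n = 3 each; contrast 1.1 on the log2 scale, adjusted p = 0.000453). COR27, an evening gene that also answers to cold, averaged 19 ± 6.1 CPM in card1 against 40.7 ± 12 CPM in WT at 1 h, and 44.3 ± 11 CPM in card1 against 42.7 ± 1.2 CPM in WT at 6 h (contrast 1.68, adjusted p = 0.023). LUX, a subunit of the evening complex, averaged 91.6 ± 11 CPM in card1 against 106 ± 4 CPM in WT at 1 h, and 82 ± 11 CPM in card1 against 61.3 ± 5 CPM in WT at 6 h (contrast 0.69, adjusted p = 0.00157). The card1 means of these 3 genes were below those of WT at 0, 0.5 and 1 h and above them at 6 h. The WT libraries numbered 1 stood apart in several clock-related genes, on the side of card1. At 0 h LHY, a morning factor, had 42.6, 26 and 38 CPM in card1 against 37.6, 8.72 and 15.6 CPM in WT, and COR27 had 1.09, 4.16 and 6.3 CPM in card1 against 5.68, 17.5 and 13.1 CPM in WT. At 6 h PRR7, another pseudo-response regulator, had 36.4, 41.2 and 47.5 CPM in card1 against 44.6, 21.8 and 18.3 CPM in WT, and LNK2, a clock coactivator, had 12.3, 18.1 and 21.5 CPM in card1 against 19.9, 7.63 and 8.54 CPM in WT. With WT replicate 1 left out at all 4 DMSO times, a fit chosen after seeing the data, 218 genes were called in the contrast, 164 of them among the 237. The contrasts in that fit were 1.33 for PRR3, 1.92 for COR27, 0.69 for LUX and 2.99 for AT5G23240, a DnaJ-type protein, each called. The contrasts of PRR3 and LUX were called in all 6 fits that left out 1 library, and that of COR27 was lost in 4 of them (adjusted p up to 0.0724, without WT replicate 3) and with DMSO libraries only (adjusted p = 0.123).

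For RVE2, RVE4 and COL1 the genotype difference, card1 minus WT, was lower at 6 h than at the earlier times. RVE2, a MYB-like clock factor, averaged 24.1 ± 5.6 CPM in card1 against 15.8 ± 3.2 CPM in WT at 1 h, and 74.5 ± 3.1 CPM in card1 against 130 ± 8.3 CPM in WT at 6 h (contrast -1.35, adjusted p = 0.000193). RVE4, which activates evening genes, averaged 59.6 ± 7 CPM in card1 against 88.3 ± 2.5 CPM in WT at 6 h (contrast -0.57, adjusted p = 0.0288). COL1, a CONSTANS relative, averaged 17.5 ± 3.7 CPM in card1 against 10.2 ± 2.2 CPM in WT at 1 h, and 6.64 ± 1.1 CPM in card1 against 11.7 ± 0.74 CPM in WT at 6 h (contrast -1.49, adjusted p = 0.0124). The contrast of RVE2 was called in all 6 fits that left out 1 library, that of RVE4 was lost in 5 of them (adjusted p up to 0.154, without card1 replicate 2), with DMSO libraries only (adjusted p = 0.0709) and against 0.5 and 1 h only (adjusted p = 0.0788), and that of COL1 in 3 (adjusted p up to 0.0558, without card1 replicate 1). The core factors CCA1, LHY, TOC1 and PRR5 were called neither at 6 h nor in the contrast. At 6 h CCA1 and LHY were at a few CPM, where only large differences can be called. CCA1 had 1.31, 1.44 and 3.5 CPM in card1 and 2.19, 0.347 and 0.776 CPM in WT. LHY had 2.1, 2.88 and 3.77 CPM in card1 and 1.99, 1.16 and 2.02 CPM in WT. At 0.5 h LHY had 30, 54.2 and 42.9 CPM in card1 and 20.8, 7.88 and 8.85 CPM in WT. At that time TOC1 had 77.5, 73.3 and 98 CPM in card1 and 102, 105 and 131 CPM in WT. Outside the clock list, AT5G23240 had the highest contrast (2.52, adjusted p = 6.82e-05), with 73.9 ± 4.9 CPM in card1 against 37.5 ± 10 CPM in WT at 6 h, against 8.21 ± 1.7 CPM in card1 against 21.6 ± 6 CPM in WT at 1 h. In the separate DMBQ libraries at 6 h, AT5G23240 averaged 75 ± 3.3 CPM in card1 and 44.5 ± 5.1 CPM in WT, and RVE2 averaged 74.3 ± 4.8 CPM in card1 and 124 ± 10 CPM in WT.

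**Figure D5:**
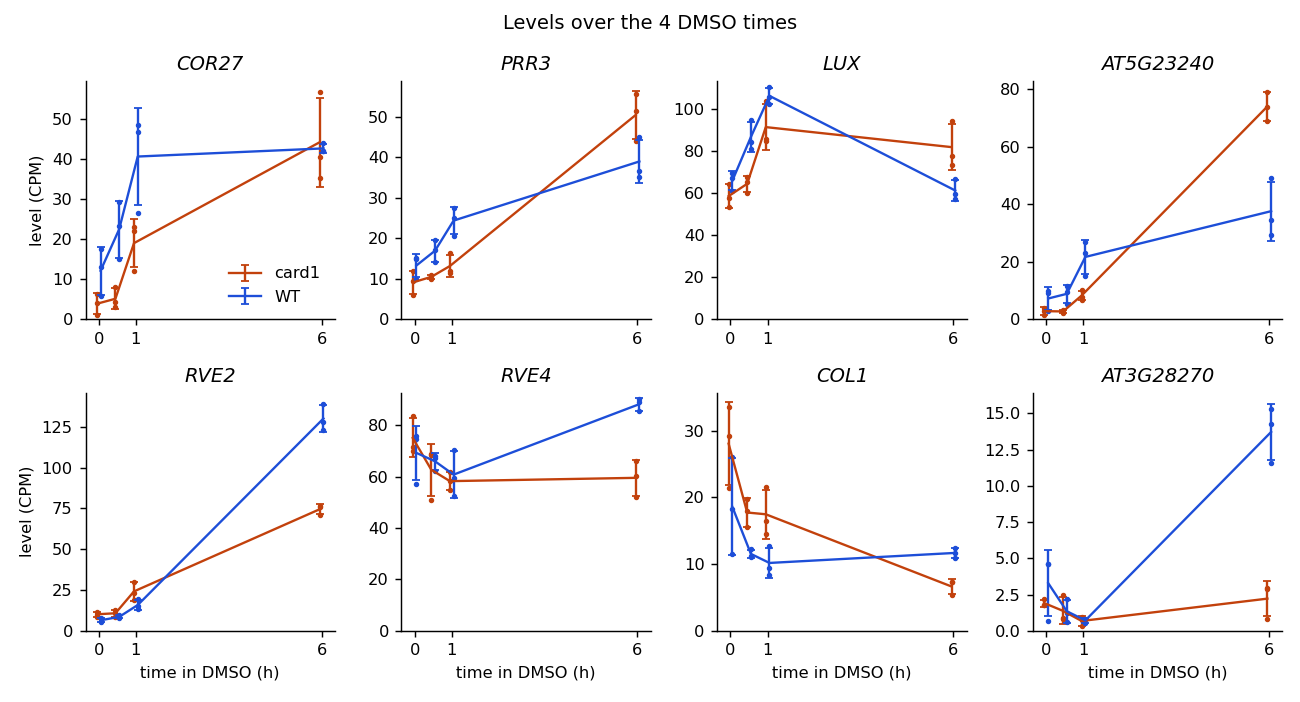
Levels (CPM) of 8 genes at 0, 0.5, 1 and 6 h in DMSO in card1 (orange) and WT (blue); small points are libraries, lines join the means and bars are SD (n = 3 each). COR27, PRR3, LUX and AT5G23240 lie lower in card1 at 0.5 and 1 h and level with or above WT at 6 h, and RVE2, RVE4, COL1 and AT3G28270 lie lower in card1 at 6 h.

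The evening element AAAATATCT is the promoter motif known to bind factors of the CCA1 and RVE family. Windows of 250 bases before to 50 bases after the annotated gene start were searched on both strands in the TAIR10.1 genome. The motif was present in 2.98% of all windows (588 of 19713), in 3.92% of those of genes higher at 6 h and in 1.71% of those of genes lower at 6 h. Of the 127 genes whose genotype difference was higher at 6 h than at the earlier times, 22 (17.3%) held the motif. Of the 107 windows of genes lower in that contrast, 1 (0.935%) held it. Against 0.5 and 1 h only the shares were 16.9% and 1.75%. The shares of the 5 other motifs in the higher group and in all windows were as follows: G-box CACGTG 8.66% against 8.66%, W-box TTGACC or TTGACT 26.0% against 32.7%, GCC box GCCGCC 5.51% against 2.72%, as-1 core TGACG 22.8% against 23.7% and heat shock element GAANNTTC 11.8% against 11.3%. In the windows of genes lower in the contrast, the shares of these 5 motifs were 14.0, 38.3, 0, 21.5 and 8.41%, in the same order. A match is a description of the letters in the window and shows no binding.

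The 120 bases before the annotated start of 4 of these genes are shown 5′ to 3′ because they hold the matches, which are in capitals in either orientation (RefSeq, TAIR10.1).
GRP7: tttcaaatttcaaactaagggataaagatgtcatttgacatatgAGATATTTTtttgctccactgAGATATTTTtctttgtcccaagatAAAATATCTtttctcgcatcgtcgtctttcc
AT5G62360: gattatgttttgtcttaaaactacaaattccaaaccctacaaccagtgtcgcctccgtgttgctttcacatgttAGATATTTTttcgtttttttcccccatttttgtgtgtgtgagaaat
LUX: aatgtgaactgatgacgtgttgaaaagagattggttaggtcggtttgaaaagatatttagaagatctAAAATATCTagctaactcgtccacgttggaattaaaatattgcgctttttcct
CCL: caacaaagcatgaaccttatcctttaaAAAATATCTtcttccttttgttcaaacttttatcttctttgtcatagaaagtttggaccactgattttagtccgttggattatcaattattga
The windows lie at chr2:9266558-9266677 on the minus strand (GRP7), chr5:25040420-25040539 on the plus strand (AT5G62360), chr3:17182922-17183041 on the plus strand (LUX) and chr3:9827562-9827681 on the plus strand (CCL), directly upstream of each annotated gene. GRP7, a clock-controlled RNA-binding protein, holds 3 matches, and the others hold 1. The 22 genes were chosen by the contrast, so their log2 fold changes are a description. At 0, 0.5, 1 and 6 h in DMSO their median was -0.24, -0.43, -0.31 and 0.24, and 7 of them were called higher at 6 h in DMSO. In the DMBQ libraries at 6 h, which the contrast did not use, their median was 0.18 and 19 of 22 were positive, against a median of -0.01 for all genes tested. At 6 h in DMSO, which the contrast did use, 21 of 22 were positive. Of all genes tested, 68.7% had the same sign of the genotype difference at 6 h in the 2 agents. Genes of the contrast without the motif were not set beside them, so these values do not bear on the motif.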

How the data were processed

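The authors deposited raw counts of reads per gene, 1 column for each of 48 libraries. Per the labels, RNA was taken from seedlings and libraries were made with an mRNA kit, and the submitters' processing notes name TAIR10, HTSeq 0.6.1 and HISAT2 2.1.0. The strand setting and counting mode were not stated, which leaves genes that overlap, lie antisense or are near-identical uncertain. The 33602 genes were kept by filterByExpr (minimum count 10), which left 19839, and 5 entries that name no gene stayed out; in the 6 libraries of the comparison these held reads that were not unique (7.55 to 9.53%), were not aligned (4.37 to 6.61%), met no feature (1.39 to 1.76%) or were ambiguous (0.680 to 0.726%). CPM, fold changes, standard errors and adjusted p come from edgeR 4.0.16 in R 4.3.3: TMM scaling, a robust quasi-likelihood model with a mean for each of 16 groups over all 48 libraries, and Benjamini-Hochberg adjustment over all genes within a contrast. DESeq2 1.42.0 was an alternative, with others given at the end.

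On simulated counts for 19839 genes in this comparison, 48, 78, 92 and 96% of genes changed 1.5-, 2-, 3- and 4-fold were called, with 10 false calls. Named genes are CARD1, the 15 largest called rises and falls (mean log2 CPM 1 or more, groups not overlapping), up to 4 called members of each list (or else the member with the smallest p), up to 5 called in each direction of each contrast, and LRR VIII-1 kinases and neighbours of CARD1. The members and the 33 lists were chosen with earlier results of these data known. Gene positions and windows came from TAIR10.1, in which 97.7% of identifiers had an entry; the counted build is TAIR10. Same-numbered replicates of the 2 groups had correlations of their deviations from the group means of 0.078, 0.101 and 0.050. The best correlations with another number were lower, at -0.010, 0.015 and 0.028. The labels do not say what a shared number stands for, so the numbers were not taken as pairs. A fit with the number as a block is given at the end. Some items are not reported here.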

Additional observations from a re-analysis of the deposited data

Results flagged for a closer look

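For 20 named genes the genotype difference at 6 h in DMSO differed from the mean difference at 0, 0.5 and 1 h, by edgeR's test of the contrast itself (adjusted p under 0.05 over all genes; 1.19% of genes were called). Values are log2, card1 minus WT at 6 h, minus the same at the earlier times. Higher were AT5G23240 (2.52), COR27 (1.68), AT1G07050, a CCT-motif protein (1.67), AT5G62360, an invertase inhibitor family member (1.64), AT1G17665 (1.4), PRR3 (1.1), the chaperone HSP90.1 (0.80), GRP7 (0.74) and LUX (0.69). Lower were AT3G28270 (-2.36), CYP708A2 (-1.83), the plastid gene ATCG00330 (-1.62), the transporter ABCG22 (-1.59), COL1 (-1.49), RVE2 (-1.35), UGT78D2, a flavonoid glucosyltransferase (-0.89), ABF3, an abscisic acid response factor (-0.65), VTC2 (-0.63), GSTU18 (-0.62) and RVE4 (-0.57).

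AT1G07050 averaged 16.3 ± 4.3 CPM in card1 against 15.5 ± 2.6 CPM in WT at 6 h, and 7.33 ± 2.7 CPM in card1 against 17 ± 4.4 CPM in WT at 1 h (SD, n = 3 each). ABCG22 averaged 21.1 ± 0.62 CPM in card1 against 50.3 ± 5 CPM in WT at 6 h in DMSO, and 103 ± 22 CPM in card1 against 184 ± 21 CPM in WT at 6 h in DMBQ. The contrasts of AT1G07050, AT5G62360, CYP708A2, ATCG00330 and GRP7 were lost in 1, 4, 4, 4 and 4 of 6 fits that left out 1 library, with adjusted p up to 0.0523, 0.0672, 0.134, 0.105 and 0.111. With DMSO libraries only, those of ATCG00330, CYP708A2 and GRP7 were also lost (adjusted p = 0.0955, 0.0629 and 0.0802), and with WT replicate 1 left out at all DMSO times that of CYP708A2 (adjusted p = 0.178). Against 0.5 and 1 h only, the contrast of ATCG00330 was lost (adjusted p = 0.277). The contrasts of HSP90.1, UGT78D2, ABF3, VTC2 and GSTU18 were not followed in any of these fits. At 0 h ATCG00330 averaged 86.3 ± 44 CPM in card1 against 16 ± 2.7 CPM in WT (SD, n = 3 each), with card1 replicate 3 at 36.5 CPM, and at 6 h it had 24.4, 26.7 and 22.9 CPM in card1 against 30.8, 43.3 and 35.7 CPM in WT.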

How the results depend on the processing

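Of the 70 named genes called at 6 h, 23 were called in all 6 fits that left out 1 library and under every other alternative that gave a value, CARD1, FLC, PTB1, LUL4, ACR5, NAC044, RVE2 and VTC2 among them. At thresholds of 0.01 and 0.1 the calls at 6 h in DMSO numbered 300 and 1800 (187 and 1019 higher, 113 and 781 lower). With DMSO libraries only, chosen after seeing the data, they numbered 435 (254 higher, 181 lower), and the counts at 0, 0.5 and 1 h and of the contrast with the earlier times were 1470, 586, 342 and 83. With only the libraries compared they were 13 at 0 h, 487 at 0.5 h, 2758 in DMBQ, 83 for the contrast and 4875 for card1 between 0 and 6 h. Correcting for transcript length gave 1046 at 0 h. Without 1 library in turn, the 6 h calls ranged from 396 to 1179 (233 to 730 higher, 163 to 449 lower) and the contrast from 94 to 247. The cause was not tested.

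The listed genes called at 6 h, 17 higher and 17 lower, numbered 10 higher with DMSO libraries only, 44 and 27 with only the libraries compared, 30 and 26 at a threshold of 0.1, and 4 to 16 and 7 to 15 without 1 library. Within 100 genes of CARD1, 4 were called. The seed storage gene SESA4, not called, ranged from -2.72 (without card1 replicate 2) to 3.48 (without WT replicate 2). With the replicate number as a block, 1375 genes were called at 6 h, all 1029 among them, and 27 listed genes higher and 26 lower; each card1 library correlated best with the WT library of its own number, a hint from the data and not the design. The contrast between DMSO and DMBQ at 6 h had 0 calls under every alternative, with 848 to 1485 genes at an unadjusted p under 0.05. At 3 libraries a group and these depths, genes of a few CPM allow only large differences to be called.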

Other observations

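Families taken from words in the annotation were chosen after the values had been seen, so their counts are a description. Of 51 tested photosystem subunits 14 were higher and 1 was lower in card1 at 6 h in DMSO (29.4%, median log2 fold change 0.16), beside 5.19% of all genes tested. Of 374 ribosomal proteins 29 were higher and 0 lower (7.75%, median 0.055), and of 105 translation initiation and elongation factors 11 were higher and 0 lower (10.5%, median 0.10). Of 730 protein kinases 5 were higher and 22 lower (3.70%, median -0.051). In DMBQ at 6 h, 9 ribosomal proteins were higher and 2 lower. Of the genes called at 6 h in DMSO, 29 were called in the opposite direction at an earlier DMSO time, 15 of them higher and 14 lower at 6 h.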
